A study of Mus musculus with 32 samples.

Results

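The blood-testis barrier is built by junctions between neighboring Sertoli cells, and 9 genes of these junctions were followed through the first wave of spermatogenesis in the mouse. They were chosen by symbol (Cldn11, Cldn3, Cldn5, Ocln, Tjp1, Gja1, Cdh2, Jam2 and F11r), and all 9 were among the 20368 genes in the juvenile gene table. RNA was sequenced from germ cells isolated from the seminiferous tubules of single male C57BL/6J mice, with 3 mice at 8 days post-partum (dpp) and 5 mice each at 10, 12, 14, 16 and 18 dpp. Pachytene and diplotene spermatocytes sorted by sedimentation from adults of 9 weeks were sequenced as 4 samples, each pooled from 6 mice. All animals were of this 1 strain, and no animal was treated or mutated.

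At the barrier, tight junctions, gap junctions and the actin-anchored adherens junctions called ectoplasmic specializations lie side by side near the base of the tubule. They seal the inner compartment, in which spermatocytes complete meiosis, from blood and lymph, and they are assembled in juvenile life while the first spermatocytes move through meiotic prophase. Germ cells have to pass through these contacts, and they also make adherens contacts of their own with Sertoli cells.

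Levels are in TPM, a unit that gives each gene's share of the transcripts in a library after correction for length. The tables keep no read counts, so the depth behind a value is unknown and no counting interval can be given. Differences are on the log2(TPM + 1) scale, tested with limma over all 20368 genes and called at a Benjamini-Hochberg adjusted p under 0.05. In such mixed preparations, fewer cells of a type and less RNA per cell cannot be told apart. The mice of 1 age resembled each other closely, with a mean correlation of each mouse with its age group between 0.956 and 0.984 across genes.

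The preparations labelled as germ cells held Sertoli cell RNA at every juvenile age. By cytology the authors scored most cells of every juvenile sample as germ cells, a count of cells and not of RNA. The summed level of 9 Sertoli markers was 6952 to 7949 TPM at 8 dpp and 3281 to 4326 TPM at 18 dpp, and none of the 9 was at 0 in any age group. Of these markers 7 fell from 8 to 18 dpp, among them Sox9 and Wt1, transcription factors of Sertoli identity, while Rhox5 rose and Trf was not called. Over the same ages, 8 spermatocyte markers went from 199 to 293 TPM to 2783 to 4445 TPM, and all 8 rose. At 18 dpp, mice 4 and 5 stood apart from mice 1 to 3. Their Sertoli marker sums were 4326 and 4319 TPM against 3281 to 3438 TPM, and their spermatocyte marker sums were 2809 and 2783 TPM against 4308 to 4445 TPM. Calls of the 9 genes between ages that change without these 2 mice are given both ways.

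Between 8 and 18 dpp most of the junction genes fell, while the claudin gene Cldn3 rose and the difference in the cadherin gene Cdh2 was not called. Ocln, F11r, Gja1, Jam2, Cldn11 and Tjp1 fell and Cldn3 and Cldn5 rose, so that 8 of the 9 genes were called, against 68.2% of all genes tested. Of all genes 36.3% fell and 31.8% rose. The median difference of the 9 genes was -0.80 on the log2 scale, beside -0.09 for all genes. In each of the 8 called genes, the mice of 8 dpp and those of 18 dpp did not overlap, with no share of all genes given for this. Over all 6 ages 8 of the 9 genes differed by limma's F test, against 77.6% of all genes, and Cdh2 did not (adjusted p = 0.395). Without 18 dpp mice 4 and 5 all 9 differed, against 79.2% of all genes, with an adjusted p for Cdh2 of 0.00741. Without them 7 of the 9 were called between 8 and 18 dpp, against 70.6% of all genes, Cldn5 no longer being called.

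**Figure D1:**
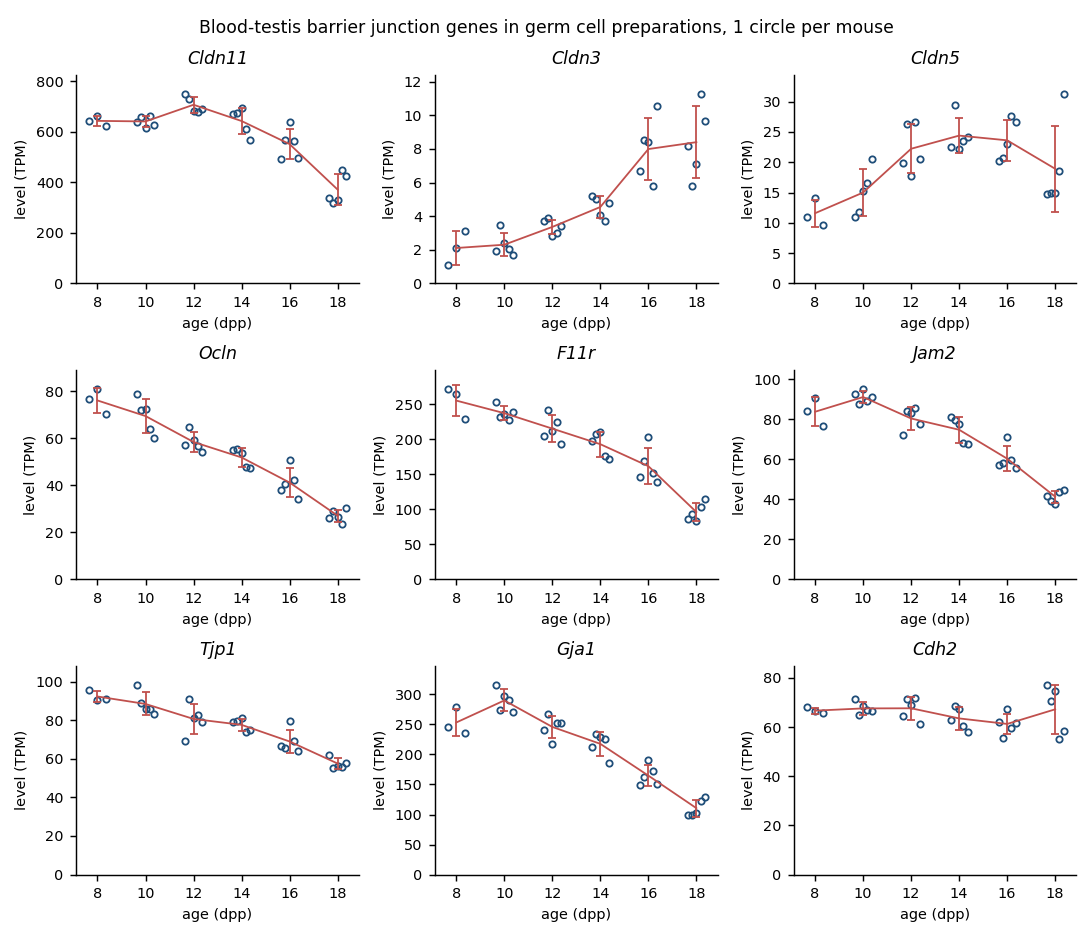
Level in TPM (vertical axes, from 0) of each of the 9 junction genes against age in dpp. Each circle is 1 mouse, and lines join the means with bars of 1 SD (n = 3 mice at 8 dpp and 5 at each later age). Cldn11 falls from 643 to 371 TPM and Cldn3 rises from 2.11 to 8.41 TPM, while the means of Cdh2 lie between 61.3 and 67.7 TPM.

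Claudins are the membrane proteins that set what passes between cells at a tight junction, and Cldn11 encodes the claudin on which the Sertoli cell barrier depends. Cldn11 (ENSMUSG00000037625, a protein-coding gene on the plus strand at chr3:31149920-31164324 in GRCm38) was the most abundant of the 9 genes. Its level was 643, 663 and 623 TPM in the 3 mice at 8 dpp. At 18 dpp the 5 mice held 337, 318, 329, 449 and 424 TPM, of which mice 4 and 5 were the 2 high values. The mean of 643 ± 20.0 TPM (SD, n = 3) held to 706 ± 31.6 TPM (n = 5) at 12 dpp and then fell to 371 ± 60.6 TPM (n = 5). The fall from 8 to 18 dpp was -0.80 ± 0.10 (SE, limma adjusted p = 2.52e-08), and 57.8% of the 8 dpp mean was left. It came late, with no called step before 14 dpp, a step of -0.22 to 16 dpp (adjusted p = 0.0475) and one of -0.58 to 18 dpp (adjusted p = 4.07e-06).

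Cldn3 (ENSMUSG00000070473, chr5:134986214-134987472, plus strand) encodes a claudin of newly formed barrier junctions that is known as an androgen-dependent gene of Sertoli cells. It was the least abundant of the 9 genes at 8 and 18 dpp and the only one under 3 TPM in any juvenile mouse. Its 8 dpp mice held 1.12, 2.11 and 3.10 TPM and its 18 dpp mice 8.18, 5.79, 7.09, 11.3 and 9.67 TPM, so that every mouse of 18 dpp was above every mouse of 8 dpp. The mean went from 2.11 ± 0.99 TPM to 8.41 ± 2.16 TPM, a rise of 1.62 ± 0.21 on the log2 scale (adjusted p = 9.96e-08). The pseudocount of 1 understates this difference, since the means themselves are 3.98-fold apart. Its 1 called step was 14 to 16 dpp, at 0.68 ± 0.18 (adjusted p = 0.00619). The antisense gene Wbscr25 overlaps it on the other strand and reached 0.27 TPM at most.

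Cldn5 (ENSMUSG00000041378, chr16:18776847-18778262, plus strand) encodes the claudin of endothelial tight junctions, known from the blood-brain barrier and also described at the testis barrier. It rose early and did not keep rising. The 8 dpp mice held 11, 14.04 and 9.72 TPM, the mean was highest at 14 dpp at 24.4 ± 2.91 TPM, and the 18 dpp mice held 14.74, 14.97, 14.96, 18.62 and 31.33 TPM. Mouse 5 was the high one at 18 dpp. The step from 10 to 12 dpp was called at 0.55 ± 0.18 (adjusted p = 0.0234). From 14 to 18 dpp Cldn5 fell by 0.40 (adjusted p = 0.0432), and the rise left over from 8 to 18 dpp was 0.62 ± 0.20 (adjusted p = 0.0087). Without 18 dpp mice 4 and 5 that rise was 0.35 and not called (adjusted p = 0.0895).

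The upstream sequences of Cldn11 and F11r, which fell, and of Cldn3, which rose, are shown because these genes moved in opposite directions between the same mice. Each run is the 250 bases before the RefSeq transcription start in GRCm38.p6, in the direction of the gene, all 3 on the plus strand. Capitals mark a GC box (GGGCGG on either strand) or a CCAAT box (CCAAT on either strand, a motif added after the sequences had been seen).
Cldn11, chr3:31149670-31149919: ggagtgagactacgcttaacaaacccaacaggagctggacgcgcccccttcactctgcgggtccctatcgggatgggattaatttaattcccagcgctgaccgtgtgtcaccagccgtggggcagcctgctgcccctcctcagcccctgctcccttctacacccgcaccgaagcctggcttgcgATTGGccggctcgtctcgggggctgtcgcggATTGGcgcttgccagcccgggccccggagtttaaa
F11r, chr1:171437311-171437560: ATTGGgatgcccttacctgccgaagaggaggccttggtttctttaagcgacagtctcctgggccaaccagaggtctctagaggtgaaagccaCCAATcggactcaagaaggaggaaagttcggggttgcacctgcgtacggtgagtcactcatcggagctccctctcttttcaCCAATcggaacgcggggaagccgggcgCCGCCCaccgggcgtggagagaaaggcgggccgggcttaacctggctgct
Cldn3, chr5:134985964-134986213: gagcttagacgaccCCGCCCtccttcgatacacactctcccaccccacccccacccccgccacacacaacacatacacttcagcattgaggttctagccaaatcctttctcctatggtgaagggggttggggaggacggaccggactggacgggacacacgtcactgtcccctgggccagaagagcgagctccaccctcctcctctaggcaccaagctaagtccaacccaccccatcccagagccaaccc
Promoters were found for 7 of the 9 genes and not for Jam2 or Cdh2. A GC box was present in 5 of the 7, against 32.7% of 32851 mouse promoters of the same length, and a CCAAT box in 4 of the 7, against 33.8%. The 7 were counted by gene, taking the windows of Ocln together, and the shares by promoter. Their windows held 59.6 to 69.2% G or C, with Gja1 at 50%, against a median of 52.4% for all promoters. What this does to the motif counts was not tested. Among the 3 sequences printed, the GC box was in F11r and Cldn3 and the CCAAT box in Cldn11 and F11r. Cldn5, which also rose, had both. No GC box overlapped a CCAAT box. The letters AACAAT of the SOX core, AGAACA of a short androgen receptor element and TATAAA of the TATA box were in no window of the 7 genes on either strand, and in 9.42%, 16.1% and 12.4% of all promoters.

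The other membrane proteins of the tight junction, occludin and the junctional adhesion molecules, all fell. Ocln (ENSMUSG00000021638, chr13:100496507-100552718, minus strand) encodes occludin, a protein with a membrane span pattern like that of claudins but of another family. It was 76.9, 81.0 and 70.4 TPM in the 8 dpp mice and 25.98, 28.94, 26.4, 23.61 and 30.16 TPM in the 18 dpp mice. Its mean was lower at each age than at the one before, as were those of F11r and Tjp1, and went from 76.1 ± 5.31 to 27.02 ± 2.58 TPM. The difference of -1.46 ± 0.10 (adjusted p = 1.19e-12) was close to that of F11r. It was -1.455, beside -1.535 for F11r, without 18 dpp mice 4 and 5. Its steps from 10 to 12 dpp (-0.24, adjusted p = 0.0494), 14 to 16 dpp (-0.34, adjusted p = 0.00628) and 16 to 18 dpp (-0.58, adjusted p = 7.76e-06) were called.

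The 2 junctional adhesion molecules, immunoglobulin-type proteins that bridge neighboring cells, both fell. F11r (ENSMUSG00000038235, chr1:171437535-171464603, plus strand), the gene of JAM-A, went from 271.8, 264.5 and 229.5 TPM to 85.8, 92.8, 83.3, 103.5 and 113.9 TPM, a difference of -1.41 ± 0.11 (adjusted p = 5.52e-12). Jam2 (ENSMUSG00000053062, chr16:84774123-84825928, plus strand), the gene of JAM-B, went from 83.9, 90.7 and 76.4 TPM to 41.3, 39.0, 37.5, 43.4 and 44.6 TPM, a difference of -1.004 ± 0.08 (adjusted p = 2.11e-11). For both, the mice at 18 dpp were all below those at 8 dpp. F11r left 37.5% and Jam2 49.2% of the 8 dpp mean.

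Tjp1 (ENSMUSG00000030516, chr7:65296165-65527781, minus strand) encodes the zonula occludens scaffold that ties claudins and occludin to actin, and it fell less. The 8 dpp mice held 95.5, 90.3 and 91.1 TPM and the 18 dpp mice 62.0, 55.5, 56.5, 56.0 and 57.8 TPM. The difference was -0.67 ± 0.07 (adjusted p = 6.86e-09), and the called step was 16 to 18 dpp at -0.25 (adjusted p = 0.00157). The step of -0.17 from 14 to 16 dpp had an adjusted p of 0.0513, and of 0.0441 without 18 dpp mice 4 and 5. Mice 4 and 5 at 18 dpp lay within the range of mice 1 to 3 for this gene.

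Gja1 (ENSMUSG00000050953, chr10:56377330-56402513, plus strand) encodes the main gap junction connexin of Sertoli cells, which links them to each other and to germ cells. Its level was 245, 279 and 235 TPM at 8 dpp, highest on average at 10 dpp at 290 ± 18.3 TPM, and 98.6, 99.9, 103.1, 122.5 and 128.6 TPM at 18 dpp, with mice 4 and 5 the highest. The difference from 8 to 18 dpp was -1.19 ± 0.10 (adjusted p = 1.72e-11). The falls from 10 to 12 dpp (-0.24, adjusted p = 0.0386), 14 to 16 dpp (-0.40, adjusted p = 7.05e-04) and 16 to 18 dpp (-0.57, adjusted p = 4.41e-06) were called.

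Cdh2 encodes N-cadherin, the classical cadherin of the ectoplasmic specialization and of the contacts between Sertoli and germ cells. The gene (ENSMUSG00000024304, chr18:16588877-16809246, minus strand) held 67.99, 66.4 and 65.7 TPM at 8 dpp. At 18 dpp the mice held 77.3, 70.5, 74.7, 55.0 and 58.6 TPM, with mice 1 to 3 above and mice 4 and 5 below all 8 dpp mice. The difference was -0.001 (95% interval -0.18 to 0.18, adjusted p = 0.995), so a change of more than 0.18 in either direction lies outside the interval. Without 18 dpp mice 4 and 5 it was 0.15 (95% interval 0.00 to 0.30, adjusted p = 0.0617), and the step from 16 to 18 dpp was called at 0.27 (adjusted p = 6.28e-04).

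**Figure D2:**
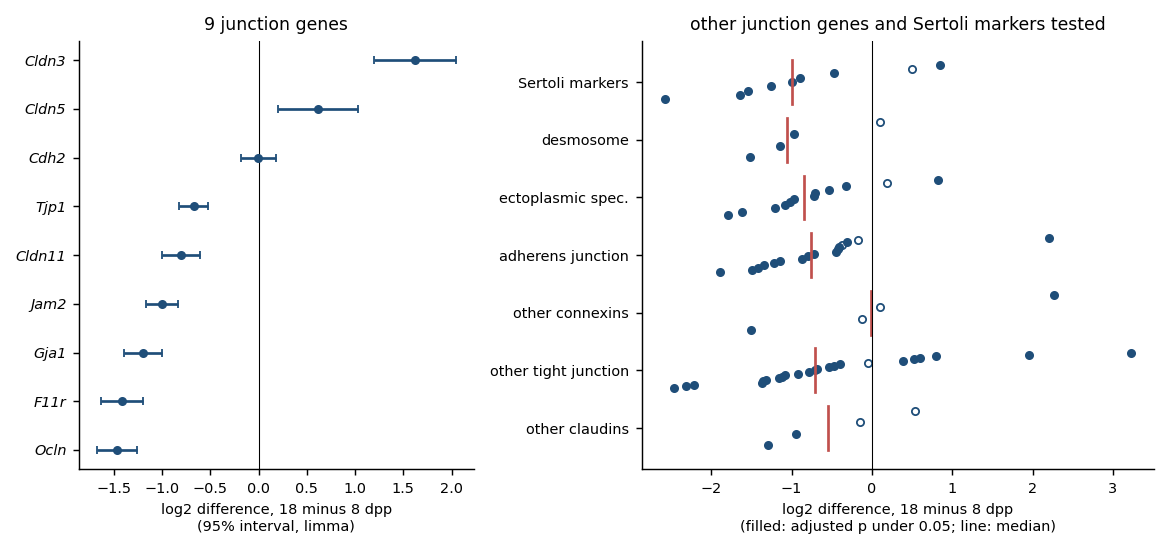
Left, log2 difference between 18 and 8 dpp for each of the 9 junction genes with its 95% interval from limma. Right, the same difference for each tested gene of 6 further junction lists and of the Sertoli markers, filled where called, with the median of each list as a line. Ocln is lowest at -1.46 and Cldn3 highest at 1.62 among the 9 genes, and the interval of Cdh2 spans 0.

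The falls of Cldn11, Gja1, Jam2, F11r, Ocln and Tjp1 were called mainly in the steps after 14 dpp, while Cldn5 rose before then. No gene of the 9 was called from 8 to 10 dpp or from 12 to 14 dpp by limma, with 1 of the 9 at an unadjusted p under 0.05 in each, and 1.2% and 0.172% of all genes were called there. From 10 to 12 dpp 3 were called, against 21.4% of all genes, with Cldn5 rising (12% of all genes rose) and Gja1 and Ocln falling (9.39% fell). From 14 to 16 dpp 6 were called, against 24% of all genes, with Cldn3 rising (12.7% rose) and 5 genes falling (11.3% fell). From 16 to 18 dpp 6 were called, against 54% of all genes, and all 6 fell (30.6% fell and 23.4% rose). Leaving out 18 dpp mice 4 and 5, these counts were 4, 7 and 8, against 25.9%, 30.8% and 61.1% of all genes. The calls added were Jam2 from 10 to 12 dpp (-0.18, adjusted p = 0.0483), Tjp1 from 14 to 16 dpp, and Cdh2 and Cldn5 from 16 to 18 dpp, Cldn5 at -0.62 (adjusted p = 0.00199). Index sequences in the labels recur between the mice of 8 to 12 dpp and those of 14 to 18 dpp, so both runs of ages were also compared within themselves. From 8 to 12 dpp Cldn5 rose (0.88, adjusted p = 0.00209) and Ocln fell (-0.38, adjusted p = 0.00778), against 23.1% of all genes called, with 13% of all genes rising and 10% falling. Without 18 dpp mice 4 and 5, which enter only the estimate of the spread there, Cldn3 (0.53, adjusted p = 0.0416) and Tjp1 (-0.20, adjusted p = 0.0474) were also called, against 28.2% of all genes. From 14 to 18 dpp Cldn3 rose and 7 genes fell, against 68.4% of all genes called, with 26.3% rising and 42.1% falling and a median difference of -0.21. Leaving out 18 dpp mice 4 and 5, all 9 were called, against 70.7% of all genes, Cdh2 rising by 0.22 (adjusted p = 0.00317).

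The order of the 9 levels shifted with age. At 8 dpp it was Cldn11, F11r, Gja1, Tjp1, Jam2, Ocln, Cdh2, Cldn5 and Cldn3, in which the mice of F11r and Gja1, of Tjp1 and Jam2, and of Jam2 and Ocln overlapped. At 18 dpp Cdh2 had moved from the seventh to the fourth place, overlapping Tjp1 below it, while Gja1 and F11r still overlapped and Ocln overlapped Cldn5.

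The gene-level value of Cdh2 was made of 2 main transcripts that moved in opposite directions. Cdh2-201 starts at the gene's first exon, and Cdh2-202 starts at its own first exon of 112 bases (chr18:16669958-16670069) inside the second intron of Cdh2-201, with which it shares all its other bases. Cdh2-201 was 32.3, 30.0 and 30.8 TPM at 8 dpp and 22.0, 14.4, 15.9, 16.66 and 18.99 TPM at 18 dpp. Cdh2-202 was 35.4, 36.4 and 34.8 TPM at 8 dpp and 55.3, 56.1, 58.9, 38.3 and 39.6 TPM at 18 dpp. For both, every mouse of 18 dpp lay outside the range of 8 dpp, and mice 4 and 5 were the low ones for Cdh2-202.

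With limma over 41089 transcripts, Cdh2-201 fell by 0.80 ± 0.13 (adjusted p = 9.49e-06) and Cdh2-202 rose by 0.45 ± 0.11 (adjusted p = 0.00209). Of all transcripts 44.1% were called, 21.1% rising and 23% falling. The share of Cdh2-202 in the gene's TPM went from 53.3% ± 1.41 (SD, n = 3) at 8 dpp to 59.6% ± 4.28 (n = 5) at 16 dpp and 73.4% ± 5.47 (n = 5) at 18 dpp. The log2 ratio of the transcripts rose by 1.25 between 8 and 18 dpp (two-sided exact permutation test, p = 0.0179, the smallest that 3 against 5 mice allow), a test chosen after the values had been seen. Reads that tell the transcripts apart can come from 1170 bases of Cdh2-201 and 112 bases of Cdh2-202, while 3673 bases are shared.

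Tjp1 also has 2 main transcripts, and these fell together. Tjp1-202 holds an exon of 240 bases, or 80 codons, that Tjp1-201 lacks, the alternative exon by which the scaffold's 2 long-known protein forms differ. It lies on the minus strand of chromosome 7 and is shown because it is a coding exon by which the transcripts compared here differ, printed in lower case from the GENCODE transcript.
Tjp1-202 exon 20, chr7:65314093-65314332: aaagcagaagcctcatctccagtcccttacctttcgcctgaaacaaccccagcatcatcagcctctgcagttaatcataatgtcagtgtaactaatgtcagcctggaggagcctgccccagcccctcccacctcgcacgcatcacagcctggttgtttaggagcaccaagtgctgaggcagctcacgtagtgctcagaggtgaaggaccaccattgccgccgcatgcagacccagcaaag
Tjp1-202, with the exon, was 36.5, 37.5 and 42.9 TPM at 8 dpp and 21.2, 21.3, 19.7, 24.1 and 22.7 TPM at 18 dpp, a fall of 0.81 ± 0.10 (adjusted p = 1.83e-07). Tjp1-201, without it, was 58.2, 51.5 and 47.4 TPM at 8 dpp and 40.8, 34.2, 36.9, 31.9 and 35.2 TPM at 18 dpp, and it fell by 0.54 ± 0.11 (adjusted p = 1.23e-04). The log2 ratio of Tjp1-201 to Tjp1-202 differed by 0.27 between 8 and 18 dpp, which did not pass an exact permutation test (two-sided p = 0.161). The 2 transcripts also differ at their first exons and toward their 3′ ends.

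**Figure D3:**
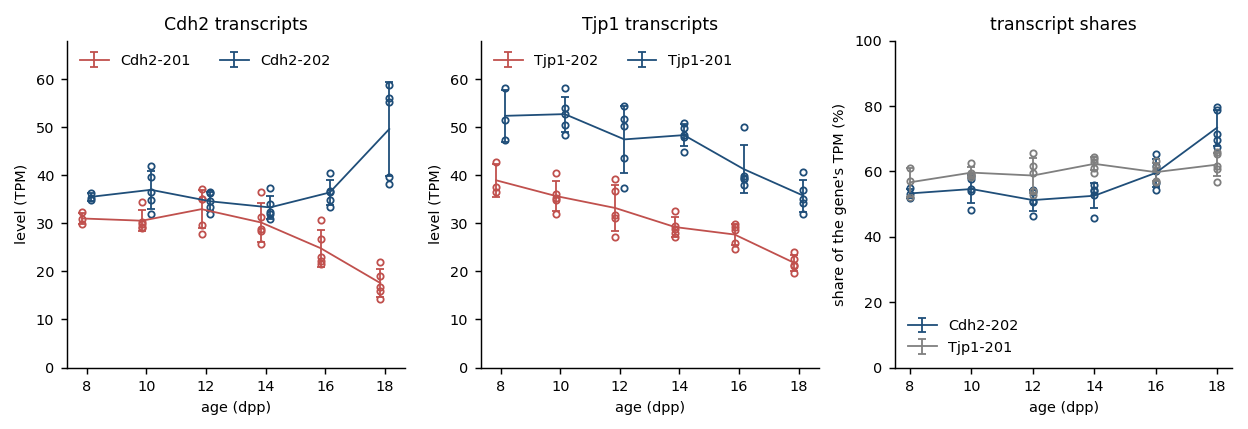
Level in TPM against age in dpp for the 2 main transcripts of Cdh2 (left) and Tjp1 (middle), and share in percent of the gene's TPM held by Cdh2-202 and Tjp1-201 (right). Circles are mice, lines join means and bars are 1 SD (n = 3 at 8 dpp, 5 later). Cdh2-202 goes up to a share of 73.4% at 18 dpp while Cdh2-201 falls, and both Tjp1 transcripts fall.

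Of the 22 transcripts of the 9 genes, 17 passed the filter of 3 TPM in at least 1 mouse. Between 8 and 18 dpp 11 of the 17 fell, 3 rose and 3 were not called. Of all 41089 transcripts tested 44.1% were called, with 23% falling and 21.1% rising. The transcript of Cldn5 was not called without 18 dpp mice 4 and 5 (adjusted p = 0.136). The 3 that rose were Cdh2-202 and the single transcripts of Cldn3 and Cldn5. The main Jam2 transcript, Jam2-202, fell by 0.64 ± 0.10 (adjusted p = 6.13e-06). The short Jam2-203, annotated as a processed transcript, stood at 14.9 to 15.9 TPM at 8 dpp and 7.50 to 19.9 TPM at 10 dpp, and was listed at 0 in 17 of the 20 older mice. That split is uncertain, since 657 of its 659 bases are shared with Jam2-202.

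The other genes of the same junctions were taken from 6 lists of 102 genes, of which 63 were in the gene table. From 8 to 18 dpp 44 of the 63 fell, 9 rose and 10 were not called, with a median difference of -0.72. Of all genes tested 36.3% fell and 31.8% rose, with a median difference of -0.09. In the tight junction list 16 of 23 tested genes fell and 6 rose. Cxadr, an adhesion molecule of tight junctions, fell from 34.8 ± 1.48 to 5.56 ± 1.27 TPM, and Amotl2, a member of the angiomotin scaffold family, from 162 ± 6.85 to 32.0 ± 3.95 TPM. Ybx3, a nucleic acid binding protein that also docks at tight junctions and is abundant in germ cells, rose from 93.8 ± 1.17 to 915 ± 247 TPM, and Pard6a, of the polarity complex, from 5.17 ± 1.67 to 22.7 ± 4.78 TPM.

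Of the other claudins 4 of 20 were tested, and Cldn1 (5.04 ± 0.43 to 1.58 ± 0.93 TPM) and Cldn12 (35 ± 1.05 to 17.8 ± 1.80 TPM) fell. Of the other connexins 4 of 19 were tested, among which Gja6 rose from 4.01 ± 1.23 to 23.0 ± 5.28 TPM and Gjb2 fell from 6.12 ± 1.17 to 1.49 ± 0.32 TPM. In the adherens junction list 12 of 16 fell, with Cdh11, a mesenchymal cadherin, and Ctnna2, an alpha catenin, lowest at -1.89 and -1.49. Its 1 riser was Nectin3, the nectin that germ cells bring to their contact with Sertoli cells, at 23.4 ± 3.44 to 117 ± 40.2 TPM. In the ectoplasmic specialization list 10 of 12 fell, with the actin-binding Dbn1 at -1.79 and the integrin Itga6 at -1.61, while Espn, the actin bundler of this structure, rose by 0.82 ± 0.12 (adjusted p = 7.52e-07). Of 4 desmosome genes tested 3 fell, Dsc2 and Pkp2 the most, at -1.52 and -1.15.

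Set against the Sertoli marker RNA of the same mouse, the genes divided. With each mouse's mean log2 level of the 9 Sertoli markers subtracted, Cldn11, Jam2 and Tjp1 differed between 8 and 18 dpp by 0.09, -0.11 and 0.22, none of them called. Ocln (-0.57), F11r (-0.52) and Gja1 (-0.30) still fell. Cdh2 (0.89), Cldn5 (1.51) and Cldn3 (2.51) rose on this scale, on which the median of all genes was 0.80. Of all 20368 genes 14012 rose and 1127 fell on it, so a rise here was common. This scale was added after the values had been seen, and it does not test what causes a difference.

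Mice of 1 age that had more Sertoli marker RNA also had more of several of the 9 transcripts. With each age's mean subtracted over the 28 mice, Cldn11 went with the marker mean at a Pearson's r of 0.916 and a Spearman's rho of 0.835, with permutation p-values within ages of 1.00e-05 and 1.30e-04. For Gja1 r was 0.858 and rho 0.862 (permutation p = 1.00e-05 for both), the smallest that 100000 resamples can give. For F11r r was 0.692 and rho 0.678 (permutation p = 0.0021 and 0.00191), and for Jam2 0.644 and 0.668 (permutation p = 5.10e-04 and 3.60e-04). These 9 relations were computed, and each pair of values comes from the same library. Over all genes the median r was 0.057, and 8.61% of genes had an r of at least 0.6, which 4 of the 9 junction genes had.

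Mice 4 and 5 of 18 dpp were also the ones whose marker mean, with age means subtracted, lay farthest from the middle. Their Leydig, peritubular, endothelial, macrophage and spermatogonium marker sums were also above those of mice 1 to 3. No relation of the junction genes to those other lists is given, so the relation is not shown to be particular to Sertoli markers. Without mice 4 and 5 of 18 dpp r was 0.817 for Cldn11, 0.826 for Gja1, 0.633 for Jam2 and 0.599 for F11r. For Ocln, r was 0.355 with them (rho 0.447, permutation p = 0.127 and 0.0426) and 0.670 without them, and for Tjp1 0.296 (rho 0.424, permutation p = 0.0983 and 0.0277) and 0.537. For Cdh2 it was -0.353 (rho -0.138, permutation p = 0.293 and 0.574) and turned to 0.501. For Cldn3 (0.296, rho 0.227, permutation p = 0.227 and 0.324) and Cldn5 (0.434, rho 0.393, permutation p = 0.0761 and 0.0579) it was -0.068 and 0.117 without them. Among the 18 mice numbered 1 to 3, r was 0.794 for Cldn11, 0.822 for Gja1, 0.685 for F11r and 0.624 for Jam2. The permutation p-values of these r were 0.03, 2.9e-04, 0.0674 and 0.0851, so that F11r and Jam2 did not pass there. Among the 10 later-numbered mice, 2 at each age from 10 to 18 dpp, r was 0.986, 0.765, 0.063 and 0.187 for the same genes, too few mice for the permutation test to pass (the smallest p was 0.0632). Against Sox9 and Wt1 alone, over all 28 mice, r was 0.695 for Cldn11, 0.720 for Gja1, 0.783 for F11r and 0.675 for Jam2. It was 0.673 for Ocln (permutation p = 0.00251) and 0.644 for Tjp1 (permutation p = 0.00314), which thus passed with these 2 markers, and 0.095 for Cldn5.

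**Figure D4:**
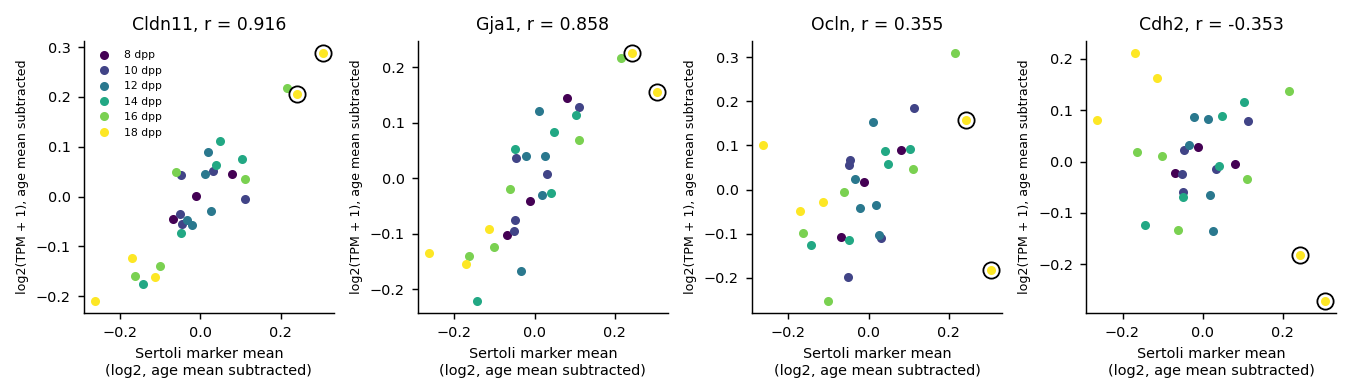
Each mouse's level of 4 junction genes on the log2(TPM + 1) scale (vertical) against its mean over 9 Sertoli markers (horizontal), both with the mean of its age subtracted. Points are colored by age, and rings mark mice 4 and 5 of 18 dpp. Cldn11 and Gja1 rise with the marker mean (r = 0.916 and 0.858), while the ringed mice turn the sign of r for Cdh2 from 0.501 to -0.353.

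The genes most like each member over the 28 mice, again with age means subtracted and among 12379 protein-coding genes, differed between the 9. Cldn11 was closest to Ttyh1 (r = 0.941), Clu (0.931) and Ldhb (0.923), of which Clu is on the Sertoli list. Gja1 was close to Etnk2 (0.906) and Wsb2 (0.876). F11r was closest to Adgra3 (0.910), Tmem200b (0.905) and Antxr1 (0.904). Cldn5 was closest to C1qtnf3 (0.863), Cdh5 (0.857), the cadherin of endothelial cells, and Zfp503 (0.849). The 5 endothelial markers summed to 53.3 to 61.0 TPM at 8 dpp, 68.3 to 103 TPM at 12 dpp and 37.3 to 75.3 TPM at 18 dpp. None was at 0 throughout an age, and their part in the course of Cldn5 was not tested.

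For Ocln the closest genes were Mex3b (0.828), Scara3 (0.814) and Edn1 (0.812), and for Tjp1 St8sia1 (0.893), Usp31 (0.882) and Ncoa2 (0.879). For Jam2 they were AU015836 (0.869), Mcl1 (0.862) and Scd2 (0.851), and for Cdh2 Sgms1 (0.868), Rnf144b (0.846) and Fam126a (0.844). Cldn3, at the lowest level, had the weakest likenesses, to F8a (0.741), Gstk1 (0.718) and Slc5a6 (0.702).

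In adult pachytene and diplotene spermatocytes Cdh2 was the most abundant of the 9 genes and the others were low. The adult table was made apart from the juvenile one, and age, sorting and stage differ between them together, so the values are set side by side without a test. Cdh2 was 105, 103, 96.3 and 111 TPM in the 4 adult samples, all above the 55.0 to 77.3 TPM of the 18 dpp mice. The other 8 genes were lower in the adult samples than in any 18 dpp mouse, with no share of all genes given for this. Cldn11 was 20.8, 29.6, 24.9 and 29.1 TPM, or 7.03% of its 18 dpp mean, and Tjp1 was 21.7, 19.7, 21.0 and 23.5 TPM, or 37.3%. Gja1 (11.3 ± 0.85 TPM), Jam2 (10.7 ± 0.74) and F11r (8.18 ± 0.68) came next. Cldn3 (3.99 ± 1.304 TPM), Ocln (2.24 ± 0.62) and Cldn5 (0.65 ± 0.14) were the lowest, each mean with its SD over 4 samples, and Cldn3 and Ocln overlapped.

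**Figure D5:**
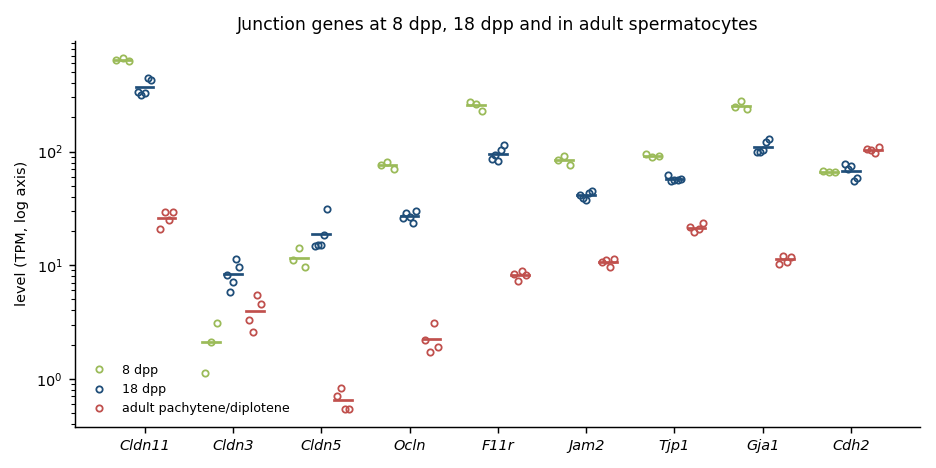
Level in TPM on a log axis of the 9 junction genes in the mice of 8 dpp (n = 3) and 18 dpp (n = 5) and in adult pachytene and diplotene spermatocytes (n = 4 pools). Circles are samples and bars are means. Cdh2 is the only gene whose adult samples lie above the 18 dpp mice, at 96.3 to 111 TPM.

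Markers of other cell types were also found in the RNA of the adult samples. By staining, the authors scored most of the adult cells as late pachytene or diplotene spermatocytes. The 9 Sertoli markers summed to 302 to 444 TPM with none at 0, the 5 endothelial markers to 2.54 to 4.32 TPM, and 5 spermatid markers to 854 to 1156 TPM, against 2783 to 4445 and 8571 to 8875 TPM of spermatocyte markers at 18 dpp and in the adult. The 6 Leydig markers summed to 206 to 270 TPM in the adult samples, beside 175 to 198 TPM at 8 dpp. The 5 peritubular markers summed to 5.57 to 10.73 TPM in the adult. The paper describes messages for the haploid phase as already transcribed in late meiotic prophase. Which cells these marker sums came from, and their part in the adult levels, was not tested. Among the other junction genes named above, those with high adult means were Ybx3 at 2392 ± 57.6 TPM, Nectin3 at 361 ± 9.06 TPM and Pard6a at 44.0 ± 2.89 TPM, while Espn was at 23.3 ± 4.87 TPM and Gja6 at 3.22 ± 0.61 TPM.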

How the data were processed

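Poly(A) RNA of isolated germ cells (28 juvenile mice, 6 ages) and of 4 adult spermatocyte pools was sequenced. Per the labels and the study's methods, the authors aligned reads with Bowtie 1.0.0 to an mm10 transcriptome of Ensembl, NONCODE and piRNA precursor transcripts and estimated TPM with RSEM 1.2.8. The deposited transcript and adult tables hold TPM. The deposited juvenile gene table holds a score, e raised to log2(TPM + 1), minus 1, found from its values. It was converted back, and 20288 of its 20368 genes then lay within 0.2 TPM of the summed deposited transcripts in every mouse. The 9 junction genes differed by at most 0.01 TPM. The authors omitted 2 mice of 8 dpp, which are not used here.

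The gene table holds genes with at least 3 TPM in at least 1 mouse. limma 3.58.1 (R 4.3.3, trend on) was fitted on log2(TPM + 1) with the 6 ages in 1 model, and Benjamini-Hochberg adjustment ran over all genes or transcripts tested. The fit was also run on simulated data with independent noise and few changed genes. That setting differs from these data, in which 68.2% of genes were called between 8 and 18 dpp. Relations to markers used permutations within ages. Coordinates are GENCODE M21 (GRCm38), promoters RefSeq. All 9 symbols and the other list genes (152 in all) matched. Named besides the 9 were the 3 protein-coding genes most like each (1 of these genes is not reported here), and up to 2 called genes with the largest rise and fall in each junction list. Juvenile samples were single mice. The 9 genes, the lists and the rules were chosen with earlier results of these data known. Depth is unknown, since TPM keeps none. Alternatives were another pseudocount, filter, scaling or prior, summed transcripts, the mouse number as a block, mouse sets as a covariate, 2 ages alone, and each mouse left out. Marker lists of Leydig (6 genes), peritubular (5), macrophage (5) and spermatogonial (7) cells were also summed.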

Additional observations from a re-analysis of the deposited data

Results flagged for a closer look

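In 5 of 74 groups of 4 or 5 samples, 1 sample lay far from the others (a gap above Dixon's 95% critical value), where chance gives about 1 in 20. Cldn5 was 31.33 TPM in mouse 5 at 18 dpp and 29.41 TPM in mouse 2 at 14 dpp, each the highest of its age. At 16 dpp mouse 3 was highest for Jam2 (70.82 TPM) and for Tjp1-201 (50.15 TPM). Cdh2-201 was highest in mouse 5 at 10 dpp (34.43 TPM).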

How the results depend on the processing

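Over 40 alternatives each, Cldn3, Ocln, Gja1 and F11r kept their direction and call between 8 and 18 dpp. The rise of Cldn5 lost its call with the 2 ages alone (0.62, adjusted p = 0.0618), without mouse 3 of 8 dpp (0.51, adjusted p = 0.0578) and, added after seeing the data, without 18 dpp mice 4 and 5. Relative to the Sertoli marker mean (also added), Cldn11 (0.088), Tjp1 (0.219) and Cdh2 (0.891) changed sign and Jam2 (-0.11) lost its call, since the markers fell. Leaving out each mouse gave 7 to 8 called genes from 8 to 18 dpp, 8 over all ages, and 11 to 17 calls over the 5 neighboring steps, against 15 with all mice. With no filter that last count was 10. Without each adult sample, 8 of the 9 genes stayed below 18 dpp by their means, again with no share of all genes given. Without 18 dpp mice 4 and 5, 7 relations to the Sertoli markers had a permutation p of Pearson's r under 0.05, against 4 with them (6 by Spearman's rho, and 6 by r against Sox9 and Wt1 alone). Another scaling moved the median of all genes from -0.09 to 0.05 (median-of-ratios) or -0.26 (quantile). From 8 to 18 dpp 8 of the 9 were called under each, against 13580 and 14680 of all 20368 genes.

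The replicate block gave 8 called genes from 8 to 18 dpp, 8 over all ages, 14 calls over neighboring steps, 14 transcripts and 53 of 63 list genes, and changed no call of the 9 genes between 8 and 18 dpp. With this block 13952 of all 20368 genes were called from 8 to 18 dpp. The numbers do not pair the mice: deviations of 65 same-numbered pairs correlated at a median of 0.014 (-0.248 to 0.253), and 6 of 28 mice were most like their own number. Depth is unknown, so what it limits cannot be stated.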

Other observations

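The 6 Leydig markers, genes of the steroid-making cells outside the tubule, summed to 175 to 198 TPM at 8 dpp and 169 to 472 TPM at 18 dpp. Of these markers 3 rose and none fell. The 5 peritubular markers, contractile genes of the tubule wall, summed to 1051 to 1160 TPM and 524 to 1034 TPM, and 1 fell. The 5 macrophage markers summed to 23.9 to 35.3 TPM and 47.6 to 76.8 TPM, and 4 rose. The 7 spermatogonium markers summed to 836 to 965 TPM and 386 to 565 TPM, and all 7 fell. The 5 spermatid markers summed to at most 3.55 TPM at 8 dpp and 6.19 TPM at 18 dpp, and none of the 5 passed the filter to be tested. At 18 dpp the Leydig, peritubular, endothelial, macrophage and spermatogonium sums were each higher in mice 4 and 5 than in mice 1 to 3.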
